A study of Mus musculus with 9 samples.

Results

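Wnt5a, Wnt7a and Wnt7b encode secreted Wnt ligands, and Sfrp1, Sfrp2, Sfrp5, Frzb, Wif1 and Dkk3 encode secreted proteins of the families that hold Wnt signalling in check. These 9 genes, 3 ligands and 6 inhibitors of 32287 gene IDs in the matrix, were chosen as Wnt ligands and antagonists whose transcripts differ between the cell types of the adult ventricular-subventricular zone (vSVZ), the neurogenic niche of the lateral ventricle. All 9 were found, and 85 further genes of the pathway served as their surroundings. The levels by cell type that follow are therefore a description, with no test.

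Single cells were taken from male TiCY mice, which carry a tamoxifen-inducible Cre under the Tlx (Nr2e1) promoter and an eYFP reporter, so that neural stem cells (NSCs) that express Tlx, and the cells they give rise to, become eYFP+; the strain designation also lists a Fas allele, Fastm1Cgn. WT mice kept the receptors for type-I and type-II interferon (IFNAGR WT), and KO mice lacked both (TiCY-IFNAGR KO, IFNAR-/- IFNGR-/-, on a C57BL6 background). Young WT mice were 16 weeks old, with tamoxifen at 10 weeks and a chase of 6 weeks, and young KO mice were 16 weeks old, with tamoxifen at 7 weeks and a chase of 9 weeks. Old WT mice were 80 weeks old, with tamoxifen at 71 weeks, and old KO mice were 92 to 105 weeks old, with tamoxifen at 85 to 98 weeks, both with a chase of 9 weeks; for the old KO mice these figures would give 94 to 107 weeks. All 4 groups thus received tamoxifen, the young WT group had the shortest chase, and the old KO mice were older than the old WT mice. From each mouse the vSVZ (eYFP+ and GLAST+ cells) and the rest of the brain (RoB: striatum, rostral migratory stream and olfactory bulb pooled, eYFP+ and eYFP-/PSANCAM-low cells) were sorted, without CD45+, Ter119+ or O4+ cells. Hashtag antibodies marked 2 mice per group and the region of origin, and each group was run in 1 droplet reaction, so that group and reaction cannot be told apart.

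The matrix held 18055 cells after filtering, between 2396 and 6461 per group, with median depths from 5026 to 7393 UMIs (unique molecular identifiers, 1 per captured transcript) per cell. A hashtag call was possible for 5815 of them (32.2%), and only these entered comparisons between mice or regions. The share with a call was 21.5% in young WT, 60.4% in old WT, 20.5% in young KO and 53.1% in old KO. Age contrasts thus set a smaller part of the young cells against a larger part of the old cells. Median hashtag counts were 5 to 7 per cell, and the main call set no limit on its certainty. Only 30 cell barcodes occurred in more than 1 library. Ifngr1 stood at 47.3 and 85.7 CPM (UMIs per 1000000 UMIs) in the young WT and old WT libraries and at 2.78 and 4.40 in the young KO and old KO libraries. Ifnar1 stood at 21.1 and 28.5 against 8.0 and 6.64; a read of the transcript's 3′ end need not lie in the deleted part.

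Wnt proteins are lipid-modified ligands that bind Frizzled receptors, with or without LRP co-receptors, and act either through beta-catenin and TCF/LEF factors or through other routes that steer cell polarity and movement. The frizzled-related proteins (Sfrp1, Sfrp2, Sfrp5 and Frzb) and Wif1 bind Wnt proteins outside the cell, while Dkk proteins bind LRP co-receptors, an activity that Dkk3, the divergent member of its family, is not known to share in full. In the vSVZ, quiescent NSCs are activated, pass through transit-amplifying progenitors (TAPs) and give neuroblasts, which migrate to the olfactory bulb, where olfactory ensheathing glia (OEG) surround the incoming axons.

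Cells were clustered without the 9 genes and the other pathway genes, and 10 classes were named from marker genes. Astroglia-like cells (4774) hold astrocytes and quiescent NSCs together, since both share the markers used. A further cluster of 981 cells expressed the same markers but was led by Prss56, Thbs4, Crym and Ecel1; eYFP transcripts were found in 50.3% of its cells and 93.7% of its hashtag-called cells came from the vSVZ. It met no class rule, was set apart after its values were seen, and is called the eYFP-rich cluster. Its eYFP share was the highest only among clusters that matched astroglia best. The shares were 64.3 and 92.6% in activated NSC-like clusters, 90.8 and 92.8% in TAP-like clusters and 38.6 to 83.9% in neuroblast-like clusters. The remaining classes were 1400 activated NSC-like, 1003 TAP-like, 6273 neuroblast-like, 640 neuron-like, 2024 OEG-like, 329 microglia-like, 104 endothelial-like, 134 oligodendrocyte-like and 82 oligodendrocyte precursor-like cells, and 311 cells were in no class. These names were rebuilt from the matrix and may differ from those of the study.

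A promoter window of 300 bases, from 250 before the RefSeq transcription start to 50 after it, was at hand for 5 of the 9 genes (Frzb, Sfrp2, Wnt7a, Wif1 and Sfrp5; RefSeq, GRCm38.p6). Sequence is shown for Frzb and Sfrp5, which had their highest level in OEG-like cells, as did Wif1 at 18 UMIs in all. The TCF/LEF core CTTTGA was sought on both strands (it reads TCAAAG on the other), as was the SOX core CTTTGT, which reads ACAAAG on the other strand and shares no match with it. The first shown is a stretch of 30 bases upstream of Frzb, chr2:80447474-80447503 on the minus strand, with the match in capitals; the RefSeq start used here lies 229 bases inside the GENCODE gene. The second shows the 250 bases before Sfrp5, chr19:42202253-42202502 on the minus strand, with neither core.
Frzb: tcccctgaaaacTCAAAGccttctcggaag
Sfrp5: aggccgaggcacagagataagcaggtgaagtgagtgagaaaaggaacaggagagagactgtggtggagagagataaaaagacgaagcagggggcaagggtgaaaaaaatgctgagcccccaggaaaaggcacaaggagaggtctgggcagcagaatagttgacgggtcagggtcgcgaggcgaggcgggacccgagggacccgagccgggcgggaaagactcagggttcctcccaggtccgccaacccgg
The Frzb match begins 95 bases before the start (position -95) and was the only match to either core in the 5 windows. A TCF/LEF core was present in 16.0% of all 32851 windows of this length and a SOX core in 18.7%, so that a single match among 5 windows is near the background.

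**Figure D1:**
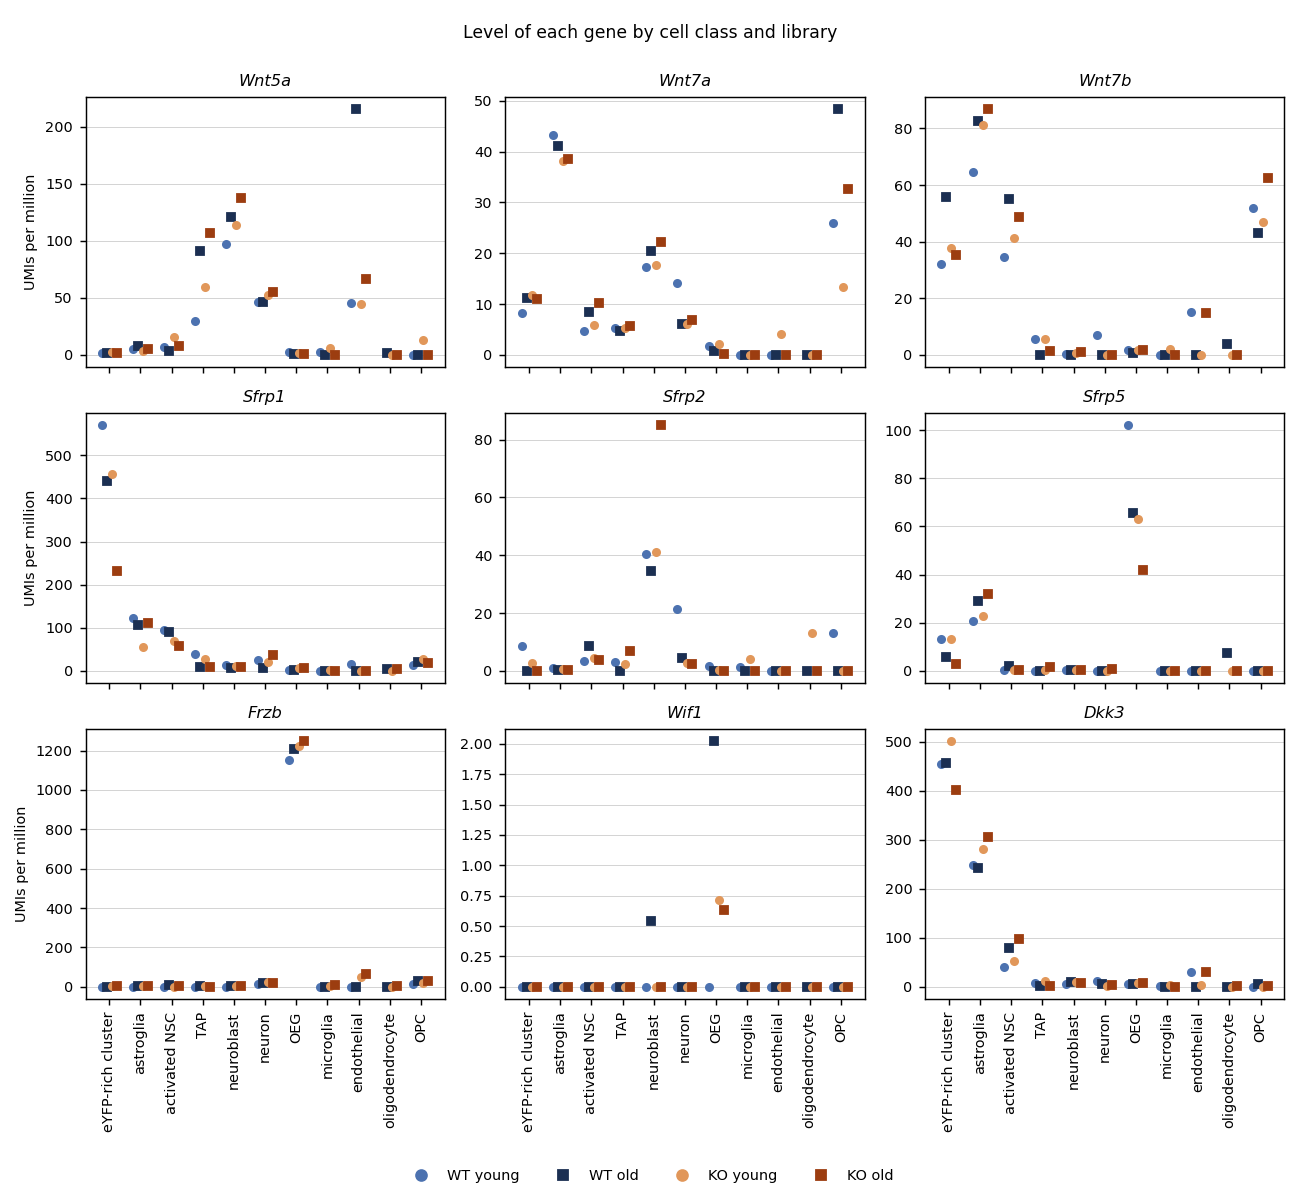
Level of each of the 9 genes, in CPM (vertical axis), in each cell class (horizontal axis); each point is 1 library, coloured by group. Frzb stood between 1151 and 1248 in the OEG class of all 4 libraries, Sfrp1 and Dkk3 were highest in the eYFP-rich cluster, and Wnt5a and Sfrp2 were high in neuroblast-like cells.

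Among the ligands, Wnt5a, which mostly signals without beta-catenin, was a transcript of the late neurogenic lineage. In neuroblast-like cells it reached 97.1 CPM in the young WT library, 121 in old WT, 114 in young KO and 138 in old KO (mean 118 ± 16.9 SD, n = 4 libraries). This class held 73.4% of all Wnt5a UMIs. TAP-like cells had 30.1, 91.0, 59.7 and 107 CPM in the same order, and neuron-like cells had a mean of 50.2 ± 4.57. The TAP-like level was lowest in both young libraries, and its range overlapped that of neuroblast-like cells. Endothelial-like cells had a mean of 93.2 ± 82.0, which rested on 3, 19, 11 and 9 UMIs and gives no firm place in this order. Activated NSC-like cells (8.51), astroglia-like cells (5.56) and the eYFP-rich cluster (2.23) lay well below. A Wnt5a UMI was found in 30.9% of neuroblast-like cells, against 1.22% of microglia-like cells, whose median depths were of the same order (4122 to 5710 and 4727 to 6404 UMIs per library); with every cell thinned to 1000 UMIs the shares were 9.55% and 0%.

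Wnt7a and Wnt7b, which act mainly through beta-catenin in the nervous system, were highest in astroglia-like cells but differed along the lineage. Wnt7b stood at 64.5, 82.7, 81.2 and 86.7 CPM in astroglia-like cells of the young WT, old WT, young KO and old KO libraries (mean 78.8 ± 9.79), and these cells held 71.9% of its UMIs. Its level was 44.9 ± 8.84 in activated NSC-like cells, 40.2 ± 10.5 in the eYFP-rich cluster and 51.1 ± 8.51 in oligodendrocyte precursor-like cells, 3 classes whose ranges overlapped. It dropped to 3.20 in TAP-like cells and 0.482 in neuroblast-like cells. Wnt7a stood at 43.2, 41.1, 38.1 and 38.6 in astroglia-like cells (mean 40.3 ± 2.38), the narrowest spread among libraries of the 3 ligands in their leading class. Oligodendrocyte precursor-like cells came next at 30.1 ± 14.5 (13.4 to 48.3, from 26 UMIs), a range that overlapped that of astroglia-like cells. Unlike Wnt7b, Wnt7a was also present in neuroblast-like cells, at 19.4 ± 2.37, and 25.7% of its UMIs came from them, against 60.1% from astroglia-like cells.

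Sfrp1, a frizzled-related inhibitor, was highest in the eYFP-rich cluster, at 570 CPM in young WT, 441 in old WT, 458 in young KO and 232 in old KO (mean 425 ± 141). The old KO library was the lowest of the 4, yet lay above every library of the next class. Astroglia-like cells had 122, 107, 54.2 and 111 (mean 98.5 ± 30.2) and activated NSC-like cells 94.1, 90.0, 69.9 and 57.0, and these ranges overlapped. TAP-like cells stood at 20.9 ± 14.7. At least 1 Sfrp1 UMI was present in 75.0% of cells of the eYFP-rich cluster (32.9% at 1000 UMIs per cell) and in 0.304% of microglia-like cells.

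Dkk3 followed a similar course, with less spread among libraries. In the eYFP-rich cluster it stood at 455, 456, 501 and 402 CPM (mean 453 ± 40.4), and in astroglia-like cells at 249, 242, 282 and 305 (mean 269 ± 29.6). Activated NSC-like cells had 39.8, 79.6, 52.7 and 96.5, with both old libraries above both young ones. This class joins cluster 12, with a mean Dkk3 of 130, and cluster 8, with 19.7. Cluster 12 held 190 of 658, 47 of 81, 174 of 494 and 102 of 167 of its cells in the same library order. The part of this mix in the order of the libraries was not tested. The ranges of the eYFP-rich cluster, astroglia-like and activated NSC-like cells did not overlap, and all other classes stood at 16.0 or less. Dkk3 was detected in 83.9% of cells of the eYFP-rich cluster (35.3% at 1000 UMIs per cell).

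Sfrp2, which is related to Sfrp1 but had another distribution, was nearly restricted to neuroblast-like cells, which held 87.8% of its UMIs. Its level there was 40.5 in young WT, 34.5 in old WT, 41.1 in young KO and 84.9 in old KO (mean 50.2 ± 23.3). The old KO library stood apart at the top. Neuron-like cells came next at 7.72 ± 9.09, with no overlap. Sfrp2 UMIs were found in 11.6% of neuroblast-like cells (4.59% when thinned) and in 0.608% of microglia-like cells.

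Frzb and Sfrp5 were highest in OEG-like cells. Frzb (also a frizzled-related protein) stood at 1151, 1210, 1226 and 1248 CPM in OEG-like cells (mean 1209 ± 41.7), which held 97.8% of its UMIs, and a UMI was found in 98.7% of these cells (66.9% at 1000 UMIs). Endothelial-like cells came next by mean at 29.0 ± 34.3, from 12 and 9 UMIs in the 2 KO libraries and none in the WT libraries. Only 2.88% of these cells held a Frzb UMI. Oligodendrocyte precursor-like cells stood at 21.9 ± 6.81, with a UMI in 17.1% of cells, and the ranges of the 2 classes overlapped. Near-empty barcodes, with 5 to 99 UMIs, held Frzb at 56.0, 393, 124 and 263 CPM, so that free Frzb RNA was present in all 4 libraries; its part in the low values of other classes was not tested. The same barcodes held Dkk3 at 58.3 to 120 CPM, Sfrp1 at 23.5 to 67.8, Wnt5a at 22.7 to 35.8, Wnt7a at 9.90 to 27.6, Wnt7b at 8.76 to 28.1, Sfrp2 at 4.81 to 32.2 and Sfrp5 at 6.48 to 36.8, and Wif1 at 0 to 0.283; their part in low class levels was likewise not tested. Sfrp5 stood at 102, 65.7, 63.0 and 41.8 in OEG-like cells (mean 68.1 ± 25.0) and at 20.9, 29.1, 22.9 and 31.9 in astroglia-like cells (mean 26.2 ± 5.19), and these 2 classes held 48.5% and 45.5% of its UMIs. The library order was turned around between them: young WT was highest in OEG-like and lowest in astroglia-like cells, and old KO the reverse.

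Wif1 could hardly be measured. It had 18 UMIs in all 18055 cells, 17 of them in OEG-like cells, as 0, 10, 3 and 4 UMIs in the young WT, old WT, young KO and old KO libraries. In the young WT library the 3-count limit that a count of 0 allows was 2.57 CPM, above the 2.02 measured in old WT, so that no difference between libraries was detectable at this depth. All intervals and limits cover counting error only.

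**Figure D2:**
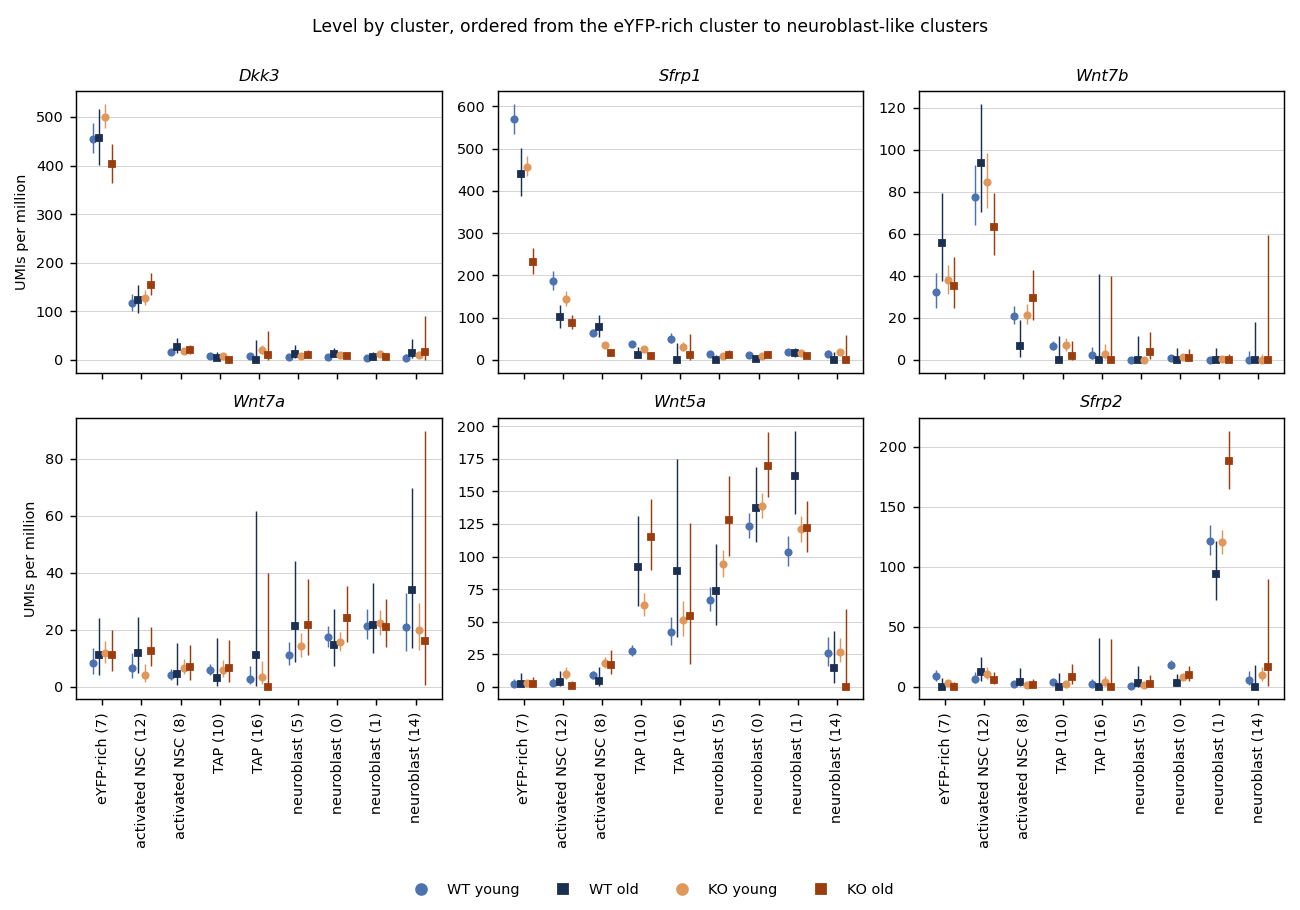
Levels in CPM (vertical axis) of the genes in the eYFP-rich cluster and the single clusters of the activated NSC-like, TAP-like and neuroblast-like classes (horizontal axis); points are libraries and bars their exact 95% Poisson intervals (counting error only). Sfrp2 had a mean of 131 in neuroblast cluster 1 and 9.54 in neuroblast cluster 0.

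Within the classes, single clusters differed in what they expressed. Sfrp2 was concentrated in neuroblast cluster 1, which was led by Igfbpl1 and Stmn2 and had Foxp2 among its top genes: its mean was 131 ± 39.9 CPM there and 9.54 ± 6.38 in cluster 0. Wnt5a did not share this split, at 142 ± 19.4 in cluster 0 and 127 ± 24.8 in cluster 1. It did differ among the other neuroblast clusters, at 90.7 ± 27.6 in cluster 5 and 16.7 ± 12.5 in cluster 14. Sfrp2 was low in both, at 1.68 and 7.79. Of the 2 activated NSC-like clusters, cluster 12, which had Egfr among its top genes, had more Wnt7b (79.7 against 19.5), Sfrp1 (130 against 48.3) and Dkk3 (130 against 19.7) than cluster 8, led by the replication genes Hells and Mcm3. These 3 genes were thus high in the same activated cluster.

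Astroglia-like clusters divided by region. Cluster 18 (led by Islr, 143 cells, 0.943% of its hashtag-called cells from the vSVZ) had the highest Sfrp1 of any cluster, 725 ± 97.4 CPM, and was the only astroglia-like cluster with much Wnt5a (49.2, 67.6, 77.7 and 86.0 in the 4 libraries), while its Dkk3 was low (83.6). Cluster 13 (led by Igfbp2, 8.52% from the vSVZ) had the highest Wnt7a, 71.5 ± 17.0. The clusters 2 and 3, mostly from the vSVZ, had the most Dkk3 among astroglia-like clusters, 318 ± 48.3 and 376 ± 35.0, and cluster 6 (led by Agt) the most Sfrp5, 44.6 ± 17.3. In OEG-like cells Frzb was high in both clusters (1152 ± 22.9 in cluster 4 and 1282 ± 61.9 in cluster 9), whereas Sfrp5 stood at 112 ± 31.1 in cluster 4, led by Vtn, and at 5.91 in cluster 9, led by Apod. All 17 OEG Wif1 UMIs lay in cluster 9.

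Over the 23 clusters of at least 50 cells, Wnt7b, Sfrp1 and Dkk3 varied together (Pearson's r of log2 levels 0.81 for Wnt7b and Dkk3, 0.76 for Sfrp1 and Dkk3, and 0.76 for Sfrp1 and Wnt7b). Among 12680 genes the most alike to Wnt5a was S100a10 (r = 0.85), to Wnt7a Gpr19 (0.90), to Wnt7b Rfx4 (0.98), to Sfrp1 Celsr1 (0.92), to Sfrp2 Dchs2 (0.93), to Sfrp5 Agt (0.90), to Frzb Npy (0.99) and to Dkk3 Scara3 (0.96). Nr2e1, the gene whose promoter drives the Cre, was the third most alike to Sfrp1 (0.88). Clusters share libraries and cell types, so these values describe the pattern only.

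To ask whether region matters for the same cell class, astroglia-like cells of the vSVZ and the RoB were compared within each of the 8 mice. Dkk3 fell in the RoB, and Sfrp1 and Wnt7a rose. Dkk3 had 318 to 388 CPM in the vSVZ (median 364) and 68.8 to 191 in the RoB (median 164), lower in 8 of 8 mice with no overlap, a log2 difference (RoB minus vSVZ) of -1.29 ± 0.087 (SE; edgeR, adjusted p = 2.43e-17). Sfrp1 had 54.0 to 168 in the vSVZ (median 98.5) and 95.5 to 239 in the RoB (median 192), higher in 7 of 8 mice (0.74 ± 0.11, edgeR adjusted p = 6.76e-07). Wnt7a had 28.0 to 43.8 in the vSVZ (median 35.0) and 45.2 to 76.5 in the RoB (median 50.4), higher in 8 of 8 mice and without overlap (0.57 ± 0.14, edgeR adjusted p = 0.00378; 0.47 and adjusted p = 0.121 with stricter hashtag calls). Wnt7b (-0.10 ± 0.11, edgeR adjusted p = 0.705) and Sfrp5 (-0.53 ± 0.24, edgeR adjusted p = 0.186) did not pass the test. Calls were thus made for 3 of the 5 members tested, against 10.9% of all 7762 genes. Wnt5a was below the count filter: it stood at 1.16 to 4.38 in the vSVZ and 8.68 to 29.4 in the RoB, higher in 8 of 8 mice.

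The regions were sorted with different gates and held different clusters, so that region and gate cannot be told apart. Cluster 18, the one with most Sfrp1 and Wnt5a, made up 7.41 to 28.1% of RoB astroglia-like cells and 0 to 0.877% of those of the vSVZ, and its Sfrp1 was 298 to 913 CPM in single mice. With the eYFP-rich cluster joined to the class, the Sfrp1 difference was 0.19 (edgeR adjusted p = 0.326), and without cluster 3 it was 1.40. Cluster 13, with a mean Wnt7a of 71.5 CPM and Dkk3 of 109, also differed in share. It made up 21.2 to 45.5% of RoB astroglia-like cells and 0 to 4.39% of those of the vSVZ. Dkk3 in cluster 2 was 303 to 444 in single mice in the vSVZ and 73.2 to 282 in the RoB. In cluster 3 it was 342 to 462 in the vSVZ and 101 to 764 in the RoB, from 3 to 12 RoB cells per mouse. The part of cluster composition in the Sfrp1, Dkk3 and Wnt7a differences was not tested.

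**Figure D3:**
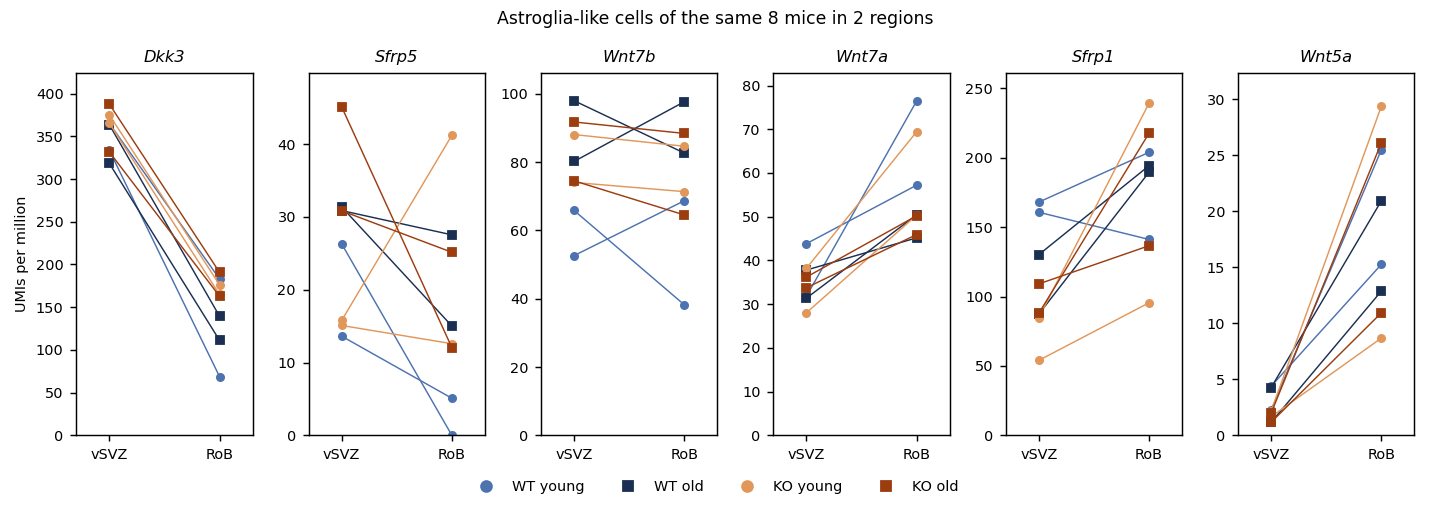
CPM (vertical axis) of 6 genes in astroglia-like cells of the vSVZ and the RoB (horizontal axis); each line joins the 2 values of 1 of the 8 mice. Dkk3 fell in all 8 mice and Wnt7a rose in all 8, while the lines of Wnt7b and Sfrp5 cross.

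To ask whether age or the loss of interferon receptors went along with other levels, the UMIs of each class were added up within each mouse and compared between groups, with n = 2 mice per group. The p-values rest on the spread between mice within groups, pooled over all groups of a class and with information shared over genes. They do not measure the spread of the compared mice alone. The SE beside a log2 difference was derived from that difference and the F statistic of its test. With 1 reaction per group, any reaction effect stays inside the contrast. Old KO mice were 92 to 105 weeks old and old WT mice 80 weeks. Genotype in old mice and the interaction therefore also hold a difference in age. A sum over a class cannot tell fewer expressing cells from less RNA per cell.

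In astroglia-like cells of the vSVZ, Sfrp1 differed with age in WT mice and with genotype in young mice. It had 168 and 161 CPM in the young WT mice, 130 and 87.3 in old WT, 54.0 and 84.8 in young KO and 109 and 87.9 in old KO. The young WT mice were above all others and the young KO mice were the lowest pair. Sfrp1 was thus lower in young KO than in young WT mice (log2 -1.21 ± 0.20, edgeR adjusted p = 0.000685) and lower in old WT than in young WT mice (-0.72 ± 0.19, edgeR adjusted p = 0.0246). In KO mice the change with age was 0.47 ± 0.18 (edgeR adjusted p = 0.253), and the change with age differed between genotypes by 1.19 ± 0.26 (edgeR adjusted p = 0.0335). Of 5 members tested, Sfrp1 alone passed for age in WT mice, for genotype in young mice and for the interaction, where 4.39%, 0.724% and 0.298% of all 9389 genes passed. All of these contrasts used the same young WT mice, the group with the shortest chase, so these calls are not independent.

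The Sfrp1 values came with values by cluster. In cluster 3, which had more eYFP transcript-positive cells than the other astroglia-like clusters (9.86%), Sfrp1 was 298 and 291 in the young WT mice, 233 and 113 in old WT, 77.3 and 111 in young KO and 159 and 143 in old KO. In cluster 2 the values were 91.5 and 84.3, 65.2 and 72.8, 45.4 and 69.1, and 68.5 and 75.6 in the same order. The young WT mice were highest in both clusters. Without cluster 3 the genotype difference in young mice was -0.88 (edgeR adjusted p = 0.159) and the age difference in WT mice -0.39 (edgeR adjusted p = 0.470). Without old WT mouse 2 the latter was also -0.39 (edgeR adjusted p = 0.415), and it lost its call without young WT mouse 1 or 2 (edgeR adjusted p = 0.112 and 0.182). The genotype difference in young mice kept its call when any 1 of the 4 mice was left out, while the interaction kept its call in 3 of 8 such fits (0.86 to 1.56, edgeR adjusted p up to 0.254; lost without either young WT mouse, old WT mouse 2, young KO mouse 1 or old KO mouse 1) and in 4 of 8 other alternatives. The genotype difference in young mice was the only call of a member between groups that DESeq2 also made.

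Sfrp5 in the same cells rose with age in KO mice. It had 13.6 and 26.3 CPM in young WT, 31.4 and 30.9 in old WT, 15.8 and 15.1 in young KO and 45.1 and 30.8 in old KO mice. Old mice were above young mice in both genotypes, with no overlap, yet only the KO difference passed (1.28 ± 0.28, edgeR adjusted p = 0.00960; WT 0.48 ± 0.35, edgeR adjusted p = 0.491). The difference between the genotypes did not pass (0.80 ± 0.46, edgeR adjusted p = 0.543). The call for KO mice is 1 of 5 members tested, against 1.63% of all genes, and was lost without young KO mouse 1, young KO mouse 2 or old KO mouse 1 (edgeR adjusted p = 0.0875, 0.205 and 0.132). For genotype in old mice none of 5 members passed, against 0.107% of all genes. Cluster 6 held 17 of 142 and 12 of 167 of these cells in young KO and 48 of 269 and 92 of 238 in old KO mice; the part of this share in the result was not tested. Sfrp5 in young KO and then old KO mice was 8.11 and 8.43 against 53.3 and 25.2 CPM in cluster 2, 23.4 and 21.7 against 43.5 and 36.9 in cluster 3, and 7.40 and 0 (from 1 and 0 UMIs) against 25.3 and 29.0 in cluster 6. The old KO mice were thus above the young KO mice in each of these 3 clusters. OEG markers summed to 73.3 to 117 CPM in astroglia-like cells of the 4 libraries, not split by mouse or region. In OEG-like cells they summed to 16603 to 19960. In oligodendrocyte-like cells the same markers summed to 32966 to 36514, so this sum is not specific to OEG. Frzb was at most 8.13 in any mouse's vSVZ astroglia-like cells. Any part of OEG RNA in the Sfrp5 values was not tested.

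Dkk3, Wnt7a and Wnt7b were not called in these cells. Dkk3 lay between 318 and 388 CPM in all 8 mice, and its 4 simple contrasts lay between -0.12 and 0.14 on the log2 scale (edgeR adjusted p of 0.617 or more). Wnt7a lay between 28.0 and 43.8. Wnt7b had 65.8 and 52.6 in young WT and 80.2 and 98.0 in old WT mice, which did not overlap, but did not pass (0.59 ± 0.21, edgeR adjusted p = 0.113).

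In the eYFP-rich cluster of the vSVZ, Sfrp1 fell with age in KO mice. It had 622 and 518 CPM in young WT, 490 and 384 in old WT, 421 and 481 in young KO and 292 and 171 in old KO mice. The old KO mice were the lowest of the 8. The age difference in KO mice was -0.92 ± 0.18 (edgeR adjusted p = 0.00854), that in WT mice -0.33 ± 0.18 (edgeR adjusted p = 0.432), and their difference did not pass (-0.59 ± 0.26, edgeR adjusted p = 0.551). Genotype in old mice gave -0.90 ± 0.20 (edgeR adjusted p = 0.0694). Of 3 members tested (Sfrp1, Dkk3, Wnt7b), 1 passed for age in KO mice, against 0.508% of all 6097 genes. None passed for age in WT, genotype in young, genotype in old or the interaction, where 1.54%, 0.410%, 0.0984% and 0.0492% of all genes did. The Sfrp1 call was lost without old KO mouse 2 (-0.59, edgeR adjusted p = 0.349) or young KO mouse 2 (-0.83, edgeR adjusted p = 0.0536). With this cluster joined to the astroglia-like class, the Sfrp1 difference with age in KO mice was -0.74 (edgeR adjusted p = 0.00505), opposite in sign to the 0.47 without it. The joined sums held 85 and 104 cells of this cluster beside 142 and 167 astroglia-like cells in the young KO mice. In the old KO mice they held 52 and 46 beside 269 and 238. The part of this mix in the joined difference was not tested.

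Dkk3 in the eYFP-rich cluster had 442 and 447 in young WT, 412 and 462 in old WT, 510.5 and 566 in young KO and 401 and 412 in old KO mice. No contrast passed; the largest was age in KO mice (-0.36 ± 0.14, edgeR adjusted p = 0.424), which at Leiden resolution 0.5 was -0.67 and passed (edgeR adjusted p = 0.00965).

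In neuroblast-like cells, Sfrp2 rose with age in KO mice, and its difference with age was not the same in the 2 genotypes. It had 64.3 and 41.4 CPM in young WT, 21.1 and 30.6 in old WT, 37.4 and 30.3 in young KO and 63.2 and 108 in old KO mice, from 37, 22, 7, 5, 20, 19, 21 and 59 UMIs. Old WT mice were below young WT mice and old KO mice above young KO mice, without overlap in either genotype. Sfrp2 rose with age in KO mice (1.39 ± 0.31, edgeR adjusted p = 0.0173), was higher in old KO than in old WT mice (1.88 ± 0.42, edgeR adjusted p = 0.0491) and changed differently with age in the 2 genotypes (2.54 ± 0.54, edgeR adjusted p = 0.00588). In WT mice the age difference was -1.15 ± 0.45 (edgeR adjusted p = 0.168). Of 3 members tested (Sfrp2, Wnt5a, Wnt7a), 1 passed in each of these 3 contrasts, against 0.343%, 0.0596% and 0.447% of all 6715 genes, and none for age in WT or genotype in young mice, against 2.99% and 1.25%. The contrasts with a call all used the same old KO mice, so these calls are not independent. The old KO mice were also older than the old WT mice, which cannot be told apart from genotype here.

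These Sfrp2 values rest on few UMIs, and mice differed in their share of cluster 1. Cluster 1 made up 26.0 and 25.0% of neuroblast-like cells in young WT, 35.2 and 33.3% in old WT, 37.4 and 32.1% in young KO and 38.2 and 49.0% in old KO mice. Within cluster 1, Sfrp2 had 239 and 147, 74.3 and 112, 131 and 79.1, and 172 and 238 CPM in the same order, so that the order of the groups within each genotype was the same. The vSVZ share of these cells ran from 54.2 to 80.9% among mice; its part in the result was not tested. Without old KO mouse 2 the age call in KO mice was lost (0.89, edgeR adjusted p = 0.734), as was the genotype call in old mice (1.39, edgeR adjusted p = 0.726) and the interaction (2.04, edgeR adjusted p = 0.160). The age call was also lost without young KO mouse 2 (1.22, edgeR adjusted p = 0.310), the genotype call without old WT mouse 1 (1.58, edgeR adjusted p = 0.366), and the interaction without young WT mouse 1 (2.17, edgeR adjusted p = 0.167) or old WT mouse 1 (2.25, edgeR adjusted p = 0.0850).

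Wnt5a in neuroblast-like cells had 97.4 and 97.8 CPM in young WT, 102 and 73.4 in old WT, 125 and 110 in young KO and 102 and 143 in old KO mice. Both young KO mice were above both young WT mice, old WT mouse 1 and old KO mouse 1 stood level, and young and old mice overlapped within each genotype. No contrast passed (log2 between -0.11 and 0.46, edgeR adjusted p of 0.713 or more).

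In OEG-like cells no member passed the test. Frzb had 1229 and 1102 CPM in young WT, 1197 and 1210 in old WT, 1119 and 1281 in young KO and 1235 and 1234 in old KO mice. Its contrasts lay between 0.02 and 0.11 on the log2 scale, with SE of about 0.10 (edgeR adjusted p of 0.856 or more). Sfrp5 had 100.4 and 86.1 in young WT, 63.4 and 75.0 in old WT, 79.3 and 69.5 in young KO and 52.7 and 34.8 in old KO mice. Old mice were below young mice in both genotypes without overlap, but the differences did not pass (KO -0.80 ± 0.19, edgeR adjusted p = 0.0765; WT -0.46 ± 0.22, edgeR adjusted p = 0.318). In cluster 4, which carries Sfrp5, the values were 140 and 120, 97.9 and 109, 131 and 131, and 74.9 and 56.8 in the same order, with old KO mice again the lowest.

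None of 4 members tested passed in OEG-like cells by edgeR or DESeq2 (at most 1 had an unadjusted p under 0.05 by edgeR) for age in WT, age in KO, genotype in young or genotype in old mice, against 2.02%, 0.278%, 0.575% and 0.387% of all 10084 genes. For the interaction 0% of genes passed (0 genes by edgeR at an adjusted p under 0.05, 1000 at an unadjusted p under 0.05, and 14 by DESeq2). In astroglia-like cells of the RoB none of 6 members passed by edgeR or DESeq2 (0 to 2 had an unadjusted p under 0.05 by edgeR) for age in WT, age in KO, genotype in young, genotype in old or the interaction, against 0.906%, 0.173%, 0.690%, 0.0575% and 0.245% of all 6952 genes. Sfrp5 came nearest there, at 3.26 ± 0.92 for genotype in young mice (edgeR adjusted p = 0.0797), from 2 and 0 UMIs in the young WT mice. No member was expressed enough in microglia-like cells to be tested, where 0.573% of 4540 genes passed for genotype in young mice.

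**Figure D4:**
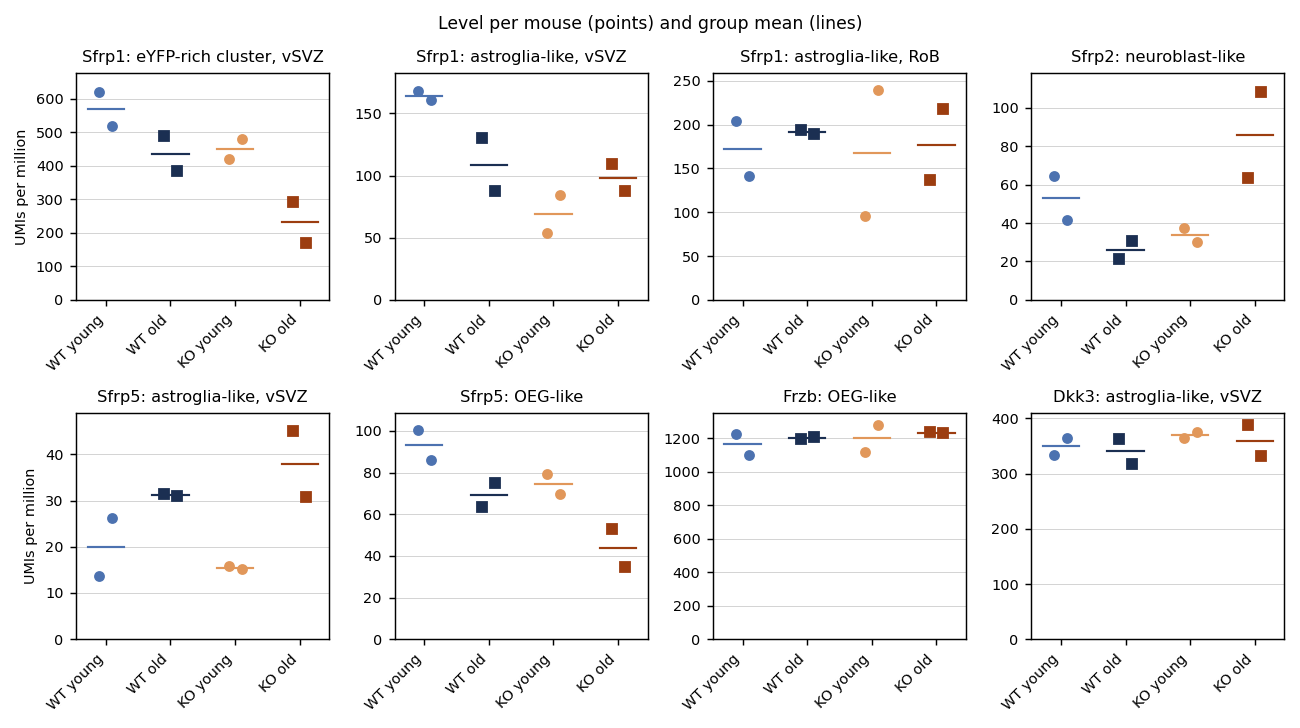
CPM (vertical axis) per mouse for the class and gene named above each panel, by group (horizontal axis); points are mice and lines group means. Sfrp1 in vSVZ astroglia-like cells was highest in young WT mice (168 and 161), Sfrp2 in neuroblast-like cells was highest in old KO mice on average (63.2 and 108), and Frzb lay between 1102 and 1281 in all 8 mice.

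The other 85 pathway genes gave the surroundings. Among ligands, Wnt6 was highest in OEG-like cells (473 ± 46.7 CPM), as was Wls, which carries Wnt proteins to the cell surface (430 ± 43.3). Draxin, another secreted inhibitor, was highest in neuroblast-like cells (67.4 ± 4.19). The receptor Fzd2 (650 ± 45.2) and the transcription factor Tcf7l2 (502 ± 55.9) were highest in astroglia-like cells, and the receptor Fzd5 (231 ± 11.5) and Tnfrsf19, a known Wnt target (281 ± 67.5), in the eYFP-rich cluster.

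The counts of these genes that passed between groups are given with the share of all genes that did. In the eYFP-rich cluster, of 30 tested, 1 passed for age in WT (1.54% of all genes), 2 for age in KO (0.508%) and 1 for genotype in old mice (0.0984%): Rspo3, a secreted enhancer of Wnt signalling, rose with age in WT mice (1.67, edgeR adjusted p = 0.0372) and in KO mice (2.33, edgeR adjusted p = 2.16e-05), Wls rose with age in KO mice (1.27, edgeR adjusted p = 0.00330) and Tle4, a co-repressor, was higher in old KO than in old WT mice (0.89, edgeR adjusted p = 0.0489). In vSVZ astroglia-like cells, of 44 tested, 1 passed for age in WT (4.39% of all genes) and 1 for age in KO mice (1.63%): the Fzd4 ligand Ndp fell with age in WT mice (-0.63, edgeR adjusted p = 0.0439) and Fzd5 rose with age in KO mice (0.65, edgeR adjusted p = 0.0320). In OEG-like cells, of 54 tested, 3 passed, for age in WT mice (2.02% of all genes): Dvl3 rose (1.57, edgeR adjusted p = 0.0472) and Rspo1 (-1.64, edgeR adjusted p = 0.0440) and Ctnnbip1 (-0.67, edgeR adjusted p = 0.0359) fell with age in WT mice. In RoB astroglia-like cells, of 34 tested, 1 passed for age in WT (0.906% of all genes) and for genotype in young mice (0.690%): Ctnnbip1, which binds beta-catenin, fell with age in WT mice (-1.23, edgeR adjusted p = 1.67e-05) and was lower in young KO than in young WT mice (-0.83, edgeR adjusted p = 0.0361). None of 26 passed in neuroblast-like cells by edgeR (1 to 3 had an unadjusted p under 0.05, depending on the contrast), against 0.0596 to 2.99% of all genes. Tle4 was the only one of 14 that passed in microglia-like cells (0.573% of all genes), higher in young KO than in young WT mice (0.92, edgeR adjusted p = 0.0496).

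By region, of 32 pathway genes tested in astroglia-like cells, 5 were higher in the RoB (Ctnnbip1, Fzd9, Tle4, Tcf7l2 and Ryk) and 6 were lower, against 10.9% of all genes (Fzd7, Fzd5, Fzd2, Tnfrsf19, Lgr4 and Wls). Fzd5 had the largest difference of these (-1.79 ± 0.16, edgeR adjusted p = 6.43e-13), and Ctnnbip1 the largest in the other direction (1.18 ± 0.11, edgeR adjusted p = 8.42e-13). The median over the 32 genes was 0.03 on the log2 scale.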

How the data were processed

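Droplet libraries of sorted cells (3′ ends) were aligned and counted by the authors with kallisto and bustools on GRCm38 and handled in Scanpy 1.6.0, per the submitters' processing notes; the deposited values used here are UMI counts per gene and barcode and counts of 4 hashtags. The strand setting is not given in the sources used here. GENCODE vM21 named 32235 of 32287 gene IDs, 31742 of them in the same version. AU022754 and Gm26771 overlap Wnt7b and Sfrp2 on the other strand, with 100 and 28 UMIs.

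From 844265 barcodes, cells with 1000 to 20000 UMIs, 100 to 6000 genes and at most 10% mitochondrial UMIs were kept (18390), and doublets were removed with Scrublet (27 to 177 per library). Total UMIs per library were 27096070 to 78028524. Cells were clustered (scanpy 1.11.5, 2000 variable genes, 50 components, Leiden resolution 1) without 397 genes (interferon response, Wnt pathway, mitochondrial and transgenes), giving 28 clusters, 23 of at least 50 cells. Levels are UMIs per 1000000 UMIs (CPM) per class and library; correlations used log2 with a pseudocount of 5. Hashtag numbers were read as mouse numbers.

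Sums per mouse (at least 20 cells) were tested with edgeR 4.0.16 (quasi-likelihood, TMM, low counts filtered, Benjamini-Hochberg over all genes, adjusted p under 0.05), 4 groups in 1 fit per class and mouse as a block for region, and tested on simulated data; DESeq2 1.42.0 was an alternative. All 9 members are named in every comparison and other pathway genes where called or highest. The members and lists were chosen with earlier results of these data known. The other alternatives were other scaling factors, no filter, stricter hashtag calls, another clustering resolution, doublets kept, single mice left out and, chosen after seeing the data, the eYFP-rich cluster on its own or joined. One hashtag sample whose group the labels do not give was not used.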

Additional observations from a re-analysis of the deposited data

Results flagged for a closer look

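The change of Sfrp1 with age in vSVZ astroglia-like cells differed between the genotypes, by 1.19 on the log2 scale (KO minus WT; edgeR interaction, adjusted p = 0.0335); this call was kept in 3 of 8 fits that left out 1 mouse and in 4 of 8 other alternatives (0.45 to 1.56). The change of Sfrp2 with age in neuroblast-like cells differed by 2.54 (edgeR interaction, adjusted p = 0.00588), kept in 5 of 8 fits that left out 1 mouse and in 4 of 4 other alternatives with an adjusted p. Among the differences between RoB and vSVZ astroglia-like cells, young WT mouse 1 stood apart from the other mice for Dkk3, at -2.20 on the log2 scale (27 UMIs in its RoB cells), while the other 7 lay between -1.48 and -0.98. Its gap to the next mouse was 0.592 of the range, above Dixon's 95% critical value for 8 mice; 8 genes were checked in this way, and chance alone marks about 1 in 20.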

How the results depend on the processing

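The count of member calls, without the eYFP-rich cluster tested on its own, changed with the processing. For age in WT mice 1 call became 0 with DESeq2, with stricter hashtag calls and without astroglia-like cluster 3, and 2 with the eYFP-rich cluster joined; leaving out 1 mouse gave 0 to 1. For age in KO mice 2 calls became 0 with DESeq2, which gave no adjusted p for Sfrp5 and Sfrp2, and 1 with stricter hashtag calls; leaving out 1 mouse gave 0 to 2. Sfrp1 for age in KO mice in the eYFP-rich cluster lost its call with DESeq2 (-0.91, adjusted p = 0.0745) and with stricter hashtag calls (-0.70, edgeR adjusted p = 0.293). For genotype in young mice 1 call became 2 without the count filter and with the eYFP-rich cluster joined, and 0 without cluster 3; leaving out 1 mouse gave 1 to 2. For genotype in old mice 1 call became 0 with DESeq2, stricter hashtag calls and doublets kept, and 2 without the filter; leaving out 1 mouse gave 0 to 2. For the interaction 2 calls became 0 with DESeq2 and stricter hashtag calls, and 1 without cluster 3 and with the cluster joined; leaving out 1 mouse gave 0 to 2. The stricter hashtag call left too few neuroblast-like cells for Sfrp2 to be fitted. Sfrp1 in vSVZ astroglia-like cells turned from 0.47 to -0.74 for age in KO mice with the eYFP-rich cluster joined, a change made by the added cells. With no replicate block (mouse), the 3 region calls stayed (Dkk3 -1.30, Sfrp1 0.74, Wnt7a 0.59). At Leiden resolution 0.5 Dkk3 in the eYFP-rich cluster was 307 CPM in place of 453; the cause was not tested. Between groups, no paired analysis was possible because a hashtag number used in several groups stands for another mouse in each. Over single members, 170 alternative values kept their direction and side of the threshold, 34 lost and 11 gained a call, and 1 turned sign. Depth limits Sfrp2 (5 to 59 UMIs per mouse) and Wif1 (18 UMIs in all).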
